A study of Arabidopsis thaliana with 26 samples.

Results

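Late rises shared by both genotypes are rows of an Arabidopsis thaliana leaf array that were near their light level after 1 day of darkening and clearly above it after 6 days, in pif5 and in Col-0 alike. The members were chosen by measured values: the mean change from light on day 1 had to be under 0.5 in size in each genotype, and the mean change on day 6 had to be at least 0.8 in each, on the log2 scale, where 1 unit is a change of 2-fold. Of 26676 rows, 17854 met the day 1 limit and 58 met all limits. The rule allows up to 200 rows, so all 58 are members.

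The tested plants carried a knockout of PIF5 (allele pif5-621 in the design text of the series), and the plants they are set against were the accession Col-0. Leaves of pif5 were sampled in light (day 0) and after 1, 3, 6 and 12 days of darkening, and leaves of Col-0 in light and after 1, 3 and 6 days. Each group had 3 arrays, except pif5 on day 12, which had 2. In every darkened group a single fully expanded leaf on each side of the rosette (2 leaves per plant) was covered with foil-coated mittens, while the rest of the plant stayed in short days of 8 h light and 16 h dark at 22 °C. The leaf blades were taken at noon, and there is 1 light group per genotype, so that days of darkening and leaf age move together and cannot be told apart.

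Covering one leaf of a plant that otherwise stays in light is a standard way to start leaf senescence, the ordered breakdown of the photosynthetic machinery through which nitrogen and other nutrients are exported to the rest of the plant. PIF5 belongs to the phytochrome-interacting factors, bHLH transcription factors that build up in darkness and are removed after phytochrome is activated by light. In Arabidopsis, PIF4 and PIF5 are known to promote dark-induced senescence, partly through ethylene and abscisic acid signalling and the NAC factor ORE1.

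Rows are cited by their identifier in the deposited table, since the levels gave no support to the gene names listed for them. The 8 rows listed with photosystem or light-harvesting proteins, which are among the most abundant messages of a green leaf, were ordinary in Col-0 light leaves, where their median stood at percentile 62.4 of the whole array. The 7 rows listed with ATG8 autophagy proteins, which leaves are known to express, had a median at percentile 11.5 there. These percentiles compare different probes and so bear on the names only loosely. In Col-0 the median level was 4.49 on day 6 and 5.07 in light for the photosystem and light-harvesting rows, with 3 of 8 higher on day 6, and 3.48 on day 6 and 3.30 in light for the ATG8 rows, with 5 of 7 higher and 0 of 7 by 0.8 or more. Of the 58 members, 32 were listed with 1 gene, 1 with several and 25 with none, and no role is assigned to any of them. For the same reason markers of leaf cell types and the level of PIF5 itself were not used, so neither the labelled tissue nor the knockout was checked on these values.

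Replicate arrays of a group correlated with 0.981 to 0.991 over all rows, and array medians lay between 4.20 and 4.33 on the log2 scale. Whether replicates were separate plants is not given by the labels. The p-values therefore reflect only the variation from array to array, part of which may be technical. The number of arrays limits the precision. In whole leaf blades, fewer cells of a type and less RNA per cell cannot be told apart.

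The median level of the members was higher in every array of days 3 and 6 than in any light or day 1 array of the same genotype. This median over 58 rows was, in pif5, 4.43, 4.23 and 4.36 in the 3 light arrays, 4.62, 4.57 and 4.64 on day 1, 5.25, 5.18 and 5.28 on day 3, 5.58, 5.69 and 5.45 on day 6, and 5.74 and 5.48 on day 12. In Col-0 it was 4.48, 4.39 and 4.48 in light, 4.56, 4.64 and 4.60 on day 1, 5.56, 5.55 and 5.53 on day 3, and 6.28, 6.23 and 6.33 on day 6. The arrays of each darkened Col-0 day therefore stood clear of the other days, whereas in pif5 the day 6 and day 12 arrays overlapped. At days 0, 1 and 6 these values follow from the choice of the rows, while the day 3 and day 12 arrays were not used in it.

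**Figure D1:**
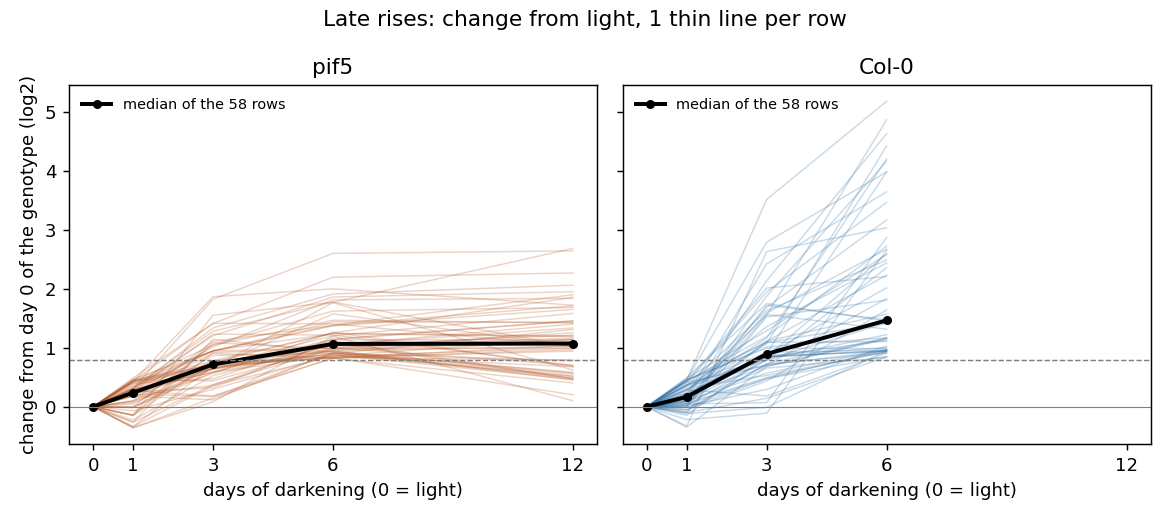
Change of each of the 58 rows from light (vertical axis, log2 units) against days of darkening (horizontal axis), pif5 on the left and Col-0 on the right; thin lines are group means of single rows, the black line their median and the dashed line the limit of 0.8 on day 6. The pif5 median is 0.72 on day 3, 1.07 on day 6 and 1.07 on day 12, and the Col-0 median is 0.90 on day 3 and 1.47 on day 6, with a wider fan of rows.

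The rule required a rise in both genotypes but not an equal one. On day 6 the change from light ran from 0.82 to 2.60 in pif5, with a median of 1.07, and from 0.84 to 5.19 in Col-0, with a median of 1.47. It was larger in pif5 at 13 rows and larger in Col-0 at 45 rows. These changes chose the rows and are given as a description.

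The rows fell along a range between a matched and an unmatched rise. At 24 rows the changes of the genotypes were within 0.3 of each other. At 16 rows the Col-0 change was at least 2 times the pif5 change, and at 1 row, 13410991, the pif5 change was at least 2 times that of Col-0. A change of at least 2 units was reached by 3 rows in pif5 and 24 rows in Col-0. Those 24 rows had a median change of 1.29 in pif5 and 2.96 in Col-0, whereas the other 34 rows had medians of 0.99 in pif5 and 1.02 in Col-0. The rows with the large Col-0 changes had a median light level of 3.93 in Col-0, against 4.68 for the others. The Col-0 change is taken from this same light level, so a lower value is in part built in, and the difference was not tested.

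**Figure D2:**
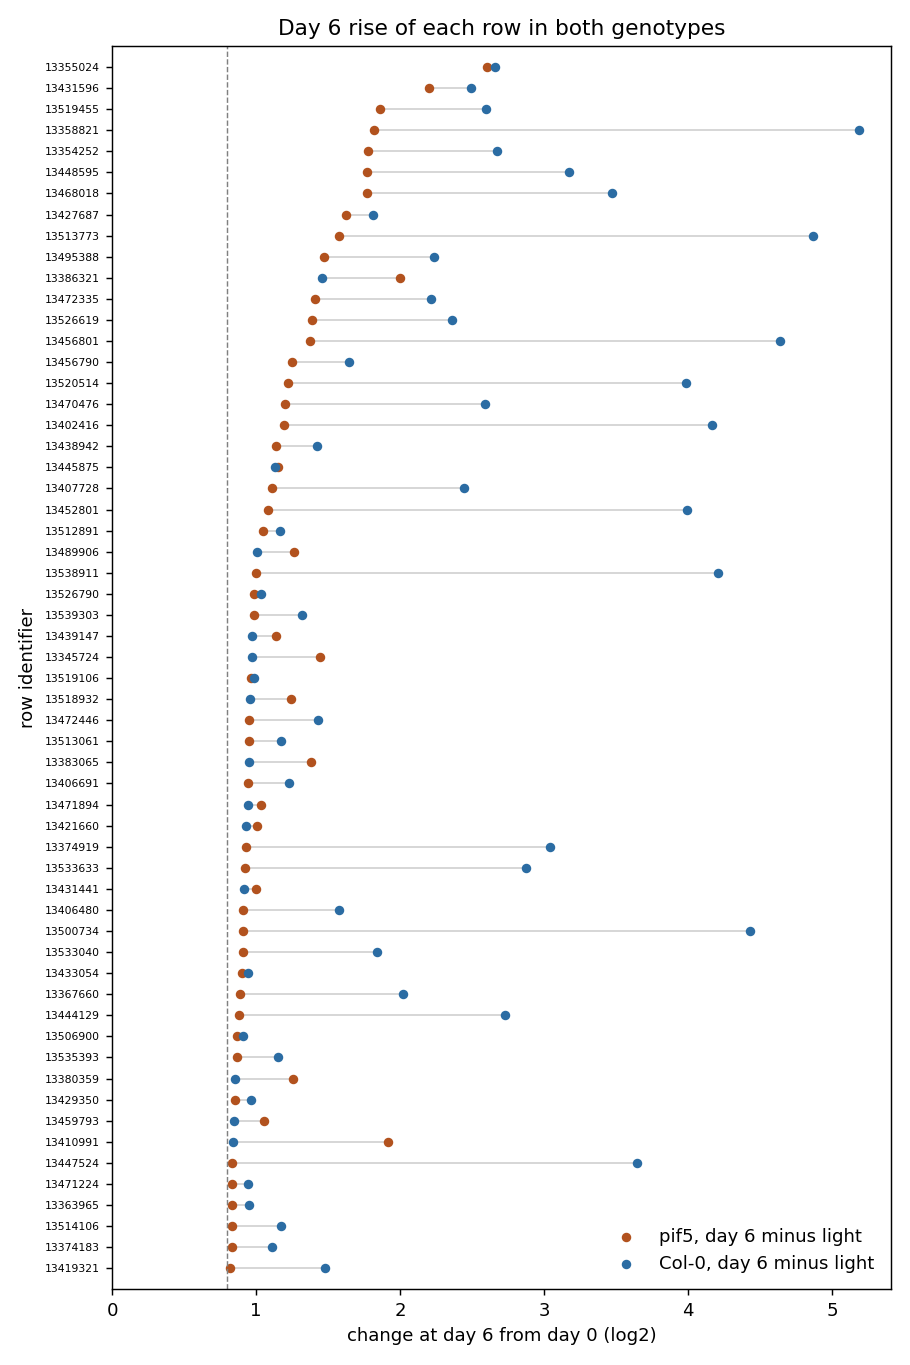
Change on day 6 from light (horizontal axis, log2 units) of the 58 rows, sorted from top to bottom by the smaller of the changes in the genotypes; orange points are pif5 and blue points are Col-0 group means, and the dashed line is the limit of 0.8. The pif5 points stay between 0.82 and 2.60, and the Col-0 points reach 5.19.

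In light the genotypes differed little at these rows. The pif5 minus Col-0 difference in level had a median of -0.03 and was under 0.3 in size at 51 of the 58. Members were of middling brightness in light, with a median at percentile 50.1 of all rows in pif5 and 52.9 in Col-0. On day 6 the medians were percentile 72.3 in pif5 and 80.7 in Col-0, a shift that the choice of rising rows builds in. Row 13429350 was the brightest member in light. It had 11.02, 10.90 and 10.82 in pif5 light leaves and 11.85, 11.75 and 11.71 on day 6, and in Col-0 10.82, 11.01 and 11.02 in light and 11.77, 11.89 and 12.08 on day 6. Its arrays did not overlap between light and day 6 in either genotype.

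Row 13355024 headed the list, with nearly the same level in both genotypes on day 6 but not on day 3. In pif5 it had 4.21, 4.09 and 4.59 in light, 4.90, 4.56 and 4.36 on day 1, 6.87, 6.20 and 5.29 on day 3, 7.42, 6.69 and 6.59 on day 6, and 7.25 and 6.64 on day 12. In Col-0 it had 3.79, 4.57 and 4.68 in light, 4.20, 3.86 and 4.34 on day 1, 4.44, 3.99 and 4.29 on day 3, and 7.33, 6.83 and 6.87 on day 6. On day 3 all pif5 arrays were above all Col-0 arrays, though the pif5 arrays were widely spread, and by day 6 the arrays of the genotypes overlapped. The day 6 minus light change was 2.60 in pif5 and 2.66 in Col-0.

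Row 13431596 followed a similar course in both genotypes. In pif5 it had 4.20, 4.11 and 4.45 in light, 5.77, 5.74 and 5.49 on day 3, 6.39, 6.59 and 6.38 on day 6, and 6.64 and 6.41 on day 12. In Col-0 it had 4.52, 4.09 and 4.16 in light, 5.97, 5.89 and 5.80 on day 3, and 6.55, 6.58 and 7.12 on day 6. Row 13427687, already bright in light, was similar, at 8.62, 8.72 and 8.67 in pif5 and 8.88, 8.90 and 8.68 in Col-0 on day 6, against 6.79, 7.08 and 7.27 in pif5 and 7.01, 7.05 and 6.96 in Col-0 in light. The arrays of the genotypes overlapped on day 6 at row 13427687 and at row 13431596.

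At row 13358821 the shared rise was most unequal in level. In pif5 it had 3.30, 3.17 and 3.29 in light, 3.87, 4.87 and 4.07 on day 3, 4.34, 5.98 and 4.88 on day 6, and 6.71 and 3.47 on day 12. In Col-0 it had 3.49, 3.34 and 3.52 in light, 7.01, 7.21 and 6.69 on day 3, and 8.89, 8.66 and 8.37 on day 6. Every darkened Col-0 array from day 3 on lay above every pif5 array of the same day, and the pif5 arrays on day 12 lay far apart.

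Row 13513773 took most of its Col-0 rise between days 3 and 6. It had 3.89, 4.23 and 4.18 on day 3, and 5.14, 5.25 and 4.62 on day 6 in pif5, against 5.25, 4.78 and 5.46 on day 3 and 8.72, 8.54 and 8.18 on day 6 in Col-0. Row 13500734 had the widest gap between the genotypes' changes, 0.91 in pif5 and 4.43 in Col-0. The 5 widest gaps, at rows 13500734, 13358821, 13513773, 13456801 and 13538911, had day 6 changes of 0.91 to 1.82 in pif5 and 4.21 to 5.19 in Col-0. The 5 narrowest, at rows 13519106, 13445875, 13433054, 13506900 and 13526790, lay between 0.87 and 1.15 in pif5 and between 0.91 and 1.13 in Col-0.

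The remaining rows of the 10 with the highest minimum were 13519455, 13354252, 13448595, 13468018 and 13495388. Their day 6 changes were 1.47 to 1.86 in pif5 and 2.23 to 3.47 in Col-0. At row 13519455 the Col-0 light arrays were 4.84, 6.46 and 6.48, so that replicate 1 stood apart and lowered the light mean from which the Col-0 change was taken. The pif5 light arrays there were 5.43, 5.16 and 5.39.

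**Figure D3:**
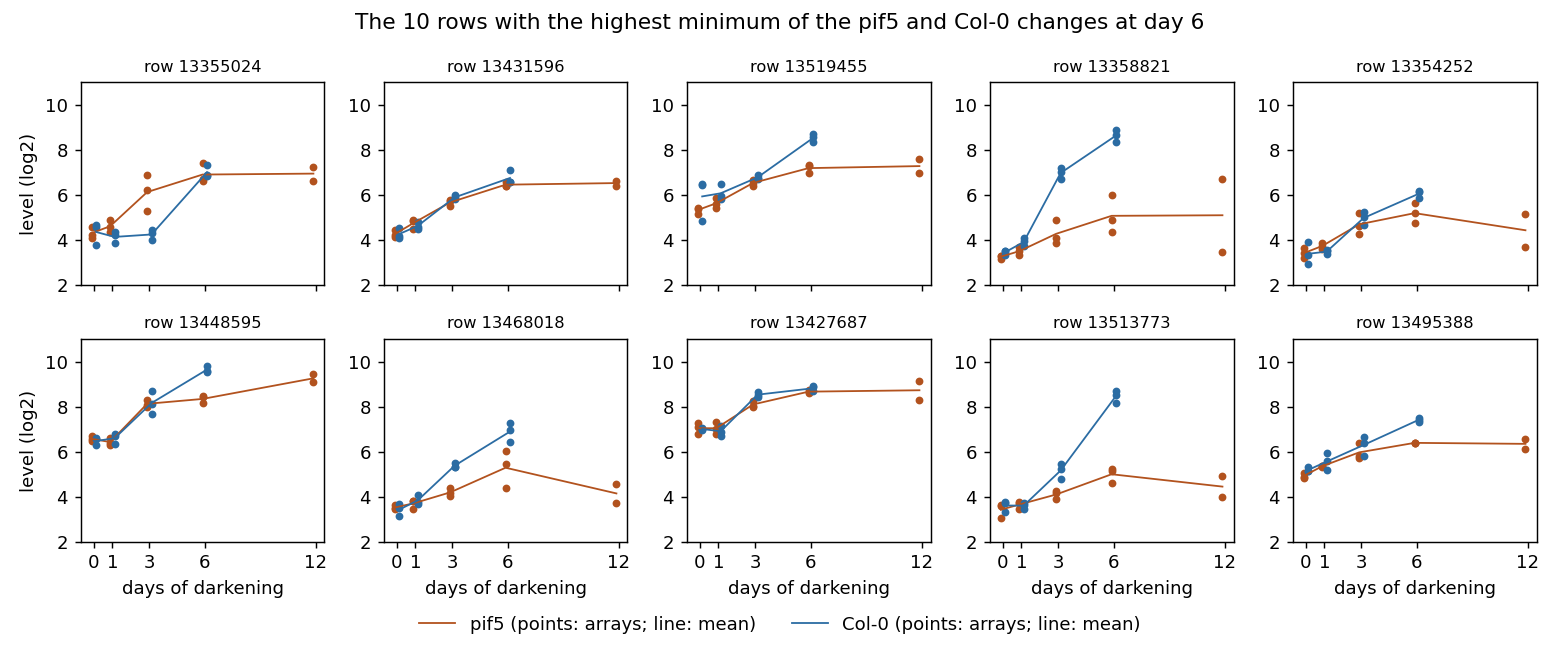
Level (vertical axis, log2) against days of darkening (horizontal axis) for the 10 rows with the highest minimum of the pif5 and Col-0 changes on day 6; points are single arrays and lines join group means, pif5 in orange and Col-0 in blue. Rows 13355024, 13431596 and 13427687 reach similar levels in both genotypes on day 6, and rows 13358821 and 13513773 are far higher in Col-0.

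On day 3, on arrays that played no part in the choice, most members had already left their light level. The change from light had a median of 0.72 in pif5 (range 0.08 to 1.87) and 0.90 in Col-0 (range -0.11 to 3.52). It was above 0 at 58 members in pif5 and 56 in Col-0. Of all 26676 rows, it was above 0 at 13940 in pif5 and 14836 in Col-0. All 3 day 3 arrays lay above all 3 light arrays at 52 of 58 rows in pif5, where 20.9% of all rows did so, and at 52 of 58 in Col-0, where 27.7% of all rows did so. The light arrays were used in the choice, so these counts are a description and were not tested.

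The share of the day 6 change reached on day 3 had a median of 67.3% in pif5 and 58.9% in Col-0. It was above 50% at 43 rows in pif5 and 37 in Col-0. That the rise was late relative to day 1 was set by the rule. The shares divide by day 6 changes that were used in the choice, so they are a description. At 6 rows in pif5 and 6 in Col-0 the day 3 change was still under 0.3. Across the 58 rows the day 3 changes of the genotypes, which share no arrays, had a Pearson correlation of 0.30 and a Spearman correlation of 0.33. Rows are not independent replicates, so this is a description.

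On day 3 the members were mostly lower in pif5 than in Col-0. Of the 58 rows, 2 were higher in pif5, where 8.53% of all rows were, and 19 were lower in pif5, where 9.8% of all rows were (limma over all rows, Benjamini-Hochberg adjusted p under 0.05). The 19 lower rows are 32.8% of the members. The median pif5 minus Col-0 difference on day 3 was -0.26 over the members and -0.02 over all rows. It was negative at 43 members and positive at 15. Neither group of this comparison was used in the choice.

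The largest deficit in pif5 on day 3 was at row 13358821, whose arrays are given above, with a difference of -2.70 ± 0.44 (SE; limma adjusted p = 4.6e-05). Row 13419321 had 4.19, 4.41 and 4.29 in pif5 and 6.19, 6.44 and 5.37 in Col-0 on day 3 (difference -1.70 ± 0.23 SE, limma adjusted p = 2.5e-06). Row 13447524 had 5.75, 5.53 and 5.77 in pif5 and 7.34, 7.52 and 7.26 in Col-0 (-1.69 ± 0.23 SE, limma adjusted p = 3.9e-06). At these rows no pif5 array reached any Col-0 array of that day.

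Row 13374919 had 5.75, 6.64 and 6.71 in pif5 and 8.03, 7.99 and 8.11 in Col-0 on day 3 (-1.68 ± 0.25 SE, limma adjusted p = 1.2e-05). Row 13520514 had 4.40, 4.69 and 5.13 in pif5 and 6.34, 6.04 and 6.41 in Col-0 (-1.52 ± 0.18 SE, limma adjusted p = 4.7e-07). Here too the groups did not overlap. Of the 21 rows called in either direction on day 3, 15 had a Col-0 change of at least 2 on day 6 and 6 a smaller one. Over all members these numbers were 24 and 34. This is a description, since the day 6 arrays were used in the choice.

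The 2 rows higher in pif5 on day 3 were 13355024 and 13410991. Row 13355024 differed by 1.88 ± 0.29 (SE; limma adjusted p = 1.5e-05). Row 13410991 had 6.17, 6.07 and 6.04 in pif5 and 5.61, 5.33 and 5.48 in Col-0 (0.62 ± 0.17 SE, limma adjusted p = 0.0089), and without Col-0 day 3 replicate 2 its adjusted p was 0.052. Row 13410991 stayed higher in pif5 on day 6, at 6.83, 6.60 and 6.58 against 5.65, 5.80 and 5.51 in Col-0, and was the member whose day 6 change was most in favour of pif5, with 1.91 against 0.84 in Col-0.

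The genotype difference on day 3 ran with the one on day 6, which is measured on other arrays. Across the 58 rows the pif5 minus Col-0 differences at the 2 days had a Pearson correlation of 0.71 and a Spearman correlation of 0.75, and their signs matched at 50 rows. On day 6, 11 rows were higher in pif5 and 47 lower. The median difference in level was then -0.42. The rows are not independent replicates and the day 6 arrays were used in the choice, so these values describe the members only.

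**Figure D4:**
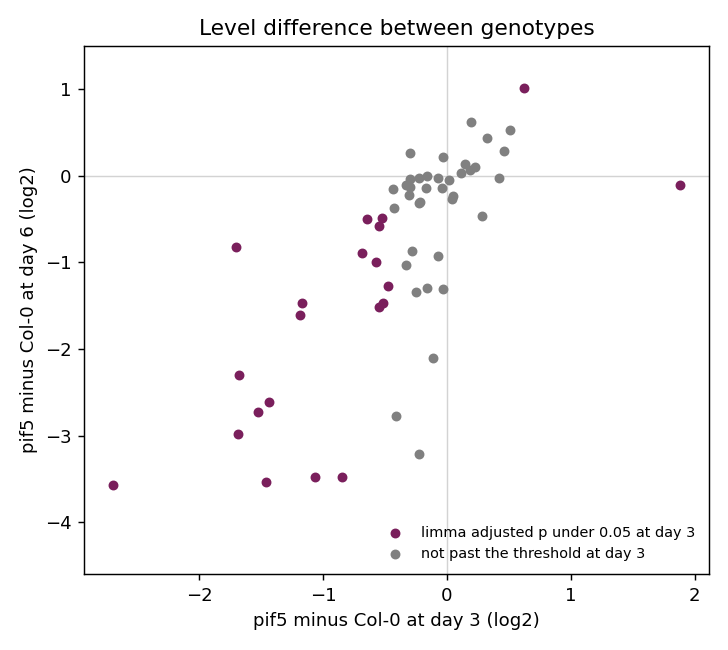
Difference in level between pif5 and Col-0 on day 6 (vertical axis, log2 units) against that on day 3 (horizontal axis), 1 point per row; purple points passed the limma test on day 3. Most points lie below 0 on both axes, and rows 13355024 and 13410991 are the purple points to the right of 0.

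After 12 days in darkness the members were still above light in pif5. All 58 had a positive mean change, with a median of 1.07, and 38 remained at or above 0.8. A positive mean change was found at 12180 of all 26676 rows. Both day 12 arrays lay above all 3 light arrays at 53 of 58 rows, where 23.1% of all rows did so. As for day 3, the light arrays were used in the choice, which favours rows low in light, so these values are a description and were not tested. The pif5 array medians on day 12 were on average 0.12 below those in light, so centring the arrays would add 0.12 to each of these changes. At 29 of the 58 rows the day 12 mean was at or above the day 6 mean. Of all 26676 rows, 12835 had a day 12 mean above the day 6 mean. At 7 members the change was below 50% of its day 6 size, and the share over all rows was not counted. The day 6 arrays were used in the choice, which favours rows high on that day, so these counts are a description.

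Day 12 was tested against day 3 in pif5, since neither group was used in the choice. On day 12, 19 of 58 rows (32.8%) were higher, where 4.58% of all rows were, and 0 were lower, where 5.72% of all rows were (limma over all rows, adjusted p under 0.05). At an unadjusted p under 0.05, 29 of the 58 members passed in either direction, where 22.3% of all rows did so. The median difference was 0.34 over the members and -0.05 over all rows. With arrays centred on their medians 1756 of all rows (6.58%) were higher and 1029 (3.86%) lower, in place of 1222 and 1527. Among the members 22 were then higher and 0 lower.

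These counts rest on 2 arrays on day 12. Without replicate 1 of day 12, 10 members were higher and 3 lower, where 2.92% of all rows were higher and 3.83% lower, and the median difference of the members was 0.21. Without replicate 2, 13 were higher and 0 lower, where 2.17% of all rows were higher and 2.16% lower, and the median was 0.50. The 3 rows lower without replicate 1 were 13374919, 13520514 and 13471224, with differences of -1.17, -0.83 and -0.76. Without pif5 day 3 replicate 1, 18 were higher and 2 lower, where 4.61% of all rows were higher and 5.62% lower. Under each of the 11 alternatives run for this comparison the same 5 rows passed.

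The 5 called rows with the largest increase were 13448595, 13380359, 13526619, 13470476 and 13438942. Row 13448595 had 9.45 and 9.08 on day 12 and 8.00, 8.09 and 8.30 on day 3, a difference of 1.13 ± 0.20 (SE; limma adjusted p = 0.00030). Its day 6 arrays, 8.16, 8.46 and 8.42, lay close to day 3, and Col-0 had already reached 9.54, 9.60 and 9.81 on day 6. Row 13380359 had 6.10 and 6.38 on day 12 and 5.24, 5.17 and 5.01 on day 3 (1.1 ± 0.16 SE, limma adjusted p = 4.1e-05). At both rows each day 12 array was above each day 3 and day 6 array of pif5. Row 13380359 was also among the members with the larger day 6 change in pif5, 1.25 against 0.86 in Col-0.

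Row 13526619 had 5.64 and 5.51 on day 12 and 4.97, 4.54 and 4.36 on day 3 (0.95 ± 0.24 SE, limma adjusted p = 0.0077). Row 13470476 had 5.01 and 5.56 on day 12 and 4.68, 4.20 and 4.33 on day 3 (0.88 ± 0.17 SE, limma adjusted p = 0.00089). Row 13438942 had 6.00 and 5.81 on day 12 and 5.02, 5.24 and 4.87 on day 3 (0.86 ± 0.17 SE, limma adjusted p = 0.0011). At these rows both day 12 arrays lay above the day 3 arrays. With day 12 replicate 2 left out the adjusted p was 0.053 at row 13526619 and 0.088 at row 13470476, and with replicate 1 left out it was 0.077 at row 13526619.

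Rows 13410991 and 13470476 were the 2 members called in both comparisons, and 20 members were called in neither. For these counts the shares over all rows were not taken, so they are a description. Of the 19 rows higher on day 12, 4 had a Col-0 change of at least 2 on day 6 and 15 had a smaller one. Over all members these numbers were 24 and 34. The day 6 arrays were used in the choice, so this split is a description. Both comparisons use the pif5 day 3 arrays, so the values stand side by side and no test of the overlap is given.

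The day 12 arrays differed from each other more at the members than over the array as a whole. Their distance had a median of 0.37 at the members and 0.16 over all rows, and 23 members were over 0.5 apart, compared with 5.84% of all rows. Replicate 1 was the higher at 42 of the 58. The share over all rows was not counted for this, and the array medians were 4.21 for replicate 1 and 4.20 for replicate 2. The largest distances were at row 13358821, with 6.71 and 3.47, row 13447524, with 6.58 and 5.05, and row 13354252, with 5.16 and 3.69. What part this spread has in the day 12 values was not tested beyond leaving out each array.

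**Figure D5:**
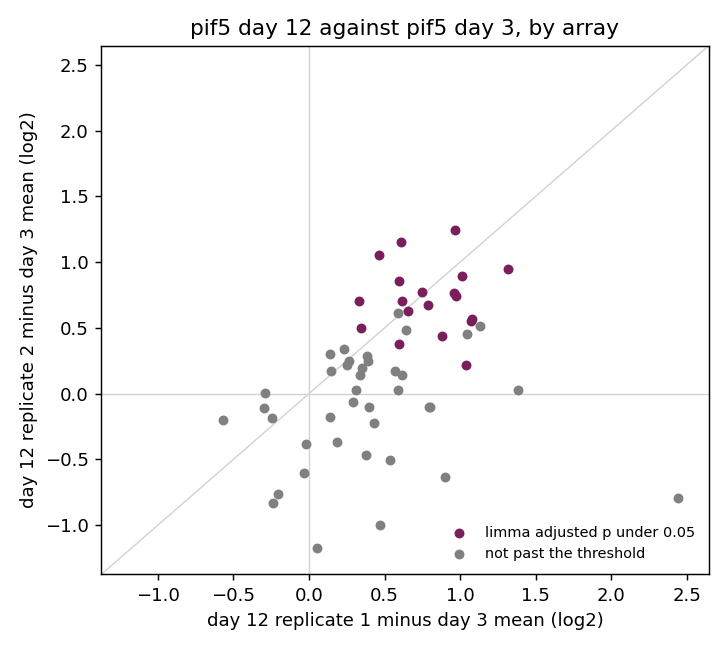
Level of each day 12 pif5 array relative to the pif5 day 3 mean (log2 units), replicate 2 on the vertical axis against replicate 1 on the horizontal axis, 1 point per row; purple points passed the limma test and the diagonal marks equal values. The 19 purple points are above 0 in both arrays, while row 13358821 lies far to the right and below 0.

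The same choice made on part of the arrays was set against the arrays left out. With replicate 1 of days 0, 1 and 6 left out the rule chose 66 rows, 47 of them members. In replicate 1 itself those 66 rows had a median day 6 change of 0.93 in pif5 and 1.36 in Col-0. Both changes were at least 0.8 at 36 of the 66, where 3.21% of all rows met this in that replicate. Leaving out replicate 2 chose 55 rows, 38 of them members, with medians in replicate 2 of 1.07 in pif5 and 1.43 in Col-0 and with 40 rows past 0.8 in both, where 4.14% of all rows did so. Leaving out replicate 3 chose 72 rows, 44 of them members, with medians in replicate 3 of 0.89 in pif5 and 1.54 in Col-0 and with 35 rows past 0.8 in both, where 3.33% of all rows did so. In each left-out replicate both medians were above 0.8, although many rows fell short of it in one genotype or the other. In all, 20 members were chosen in all 3 rounds. Only day 6 was checked in the left-out arrays, so the day 1 limit was not. The shares over all rows also carry no day 1 limit. With all replicates, 900 rows had both changes at 0.8 or more whatever their day 1 change.

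The limits cut a continuous range. Just inside the day 6 limit were rows 13419321, 13374183 and 13514106, whose lower change was 0.82, 0.83 and 0.83. Just outside were rows 13449116, 13449069 and 13384077, with 0.80, 0.79 and 0.79. At the day 1 limit, rows 13386321, 13431596 and 13470476 lay inside with a larger day 1 change of 0.49, 0.49 and 0.48, and rows 13526391, 13442612 and 13369834 outside with 0.51 each.

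Of the 17854 rows within the day 1 limit in both genotypes, 287 reached the day 6 minimum in pif5 and 716 in Col-0. The 58 members are 20.2% of these 287 rows and 8.1% of these 716. The other 229 rows of pif5, whose Col-0 change on day 6 was under 0.8, had a median day 3 change of 0.55 in pif5 and 0.11 in Col-0. The other 658 rows of Col-0, whose pif5 change on day 6 was under 0.8, had medians of 0.16 in pif5 and 0.57 in Col-0 on day 3. Between pif5 day 12 and day 3, 127 of the 229 rows (55.5%) and 14 of the 658 (2.13%) were higher on day 12, so the members' 32.8% lay between them. Between the genotypes on day 3, 1 of the 229 rows and 288 of the 658 (43.8%) were lower in pif5. Higher in pif5 were 89 of the 229 rows (38.9%) and 6 of the 658. The lists were set apart by day 6 values of the genotypes, and differences between them were not tested.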

How the data were processed

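The deposited table holds log2 values for 26676 rows and 26 arrays, summarised by the authors. The submitters' processing notes name the package oligo without a version. How the background was corrected and the arrays normalized is not given in the sources used here. Biotinylated cRNA was prepared, per the label protocol. Groups came from the sample titles, and columns were matched by sample. Gene names were checked against the values and not used.

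No further scaling was applied. The members follow from group means. Tests used limma 3.58.1 under R 4.3.3, by lmFit and moderated statistics from eBayes, with 9 groups in 1 fit and 17 residual degrees of freedom, Benjamini-Hochberg adjustment over all rows and a threshold of 0.05. This limma fit was tested on simulated data. The tests compared groups that the rule did not use: pif5 day 12 against pif5 day 3, and pif5 day 3 against Col-0 day 3. The spread of each row was estimated from all 9 groups, including those the rule used. Each SE and p-value therefore draws in part on arrays used in the choice. A fit over the compared groups alone called 17 and 21 members in these comparisons, against 19 and 21 in the main fit. Of these 17 and 21 members, 15 and 20 were also called in the main fit. Of all rows, the fit over the compared groups called 1845 and 4140, against 2749 and 4889. Alternatives were quantile normalization, median centring, a filter on dim rows, a fit over the compared groups, an intensity trend, a replicate block, leaving out arrays and other limits of the rule.

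Rows named are the 10 with the highest lower change at day 6, up to 5 called rows per direction and comparison with the largest difference, 3 rows on each side of the limits (fewer than 200 rows met them, so there is no cut by rank), and the 5 widest and 5 narrowest gaps between the genotypes. Rows 13429350, 13471224, 13402416 and 13456790 were named after their values were seen. The members, lists and tests were chosen with earlier results of these data known. Python 3.11.15 drew the figures and summaries.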

Additional observations from a re-analysis of the deposited data

How the results depend on the processing

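The number of rows that meet the limits depended on the scaling and on the limits. It was 73 with quantile normalization and 88 with arrays centred on their medians, and 54 and 57 of these were members. It was 38 with a day 1 limit of 0.4 and 24 with a day 6 minimum of 1. With 1 replicate of every group at days 0, 1 and 6 left out it lay between 55 and 72. For pif5 day 12 against pif5 day 3 the median difference of the members lay between 0.21 and 0.50 with 1 array left out. The lowest value was without replicate 1 of day 12 and the highest without replicate 2. The 19 calls among members lay between 13 and 22 under the alternatives. Over all rows, 2749 were called, with 1156 without day 12 replicate 2 and 1800 without replicate 1. For pif5 day 3 against Col-0 day 3 the 21 calls among members lay between 16 and 26, with 13 rows called each time. Of all rows, 4889 were called in the main fit. The 16 came without Col-0 day 3 replicate 1, where 4006 of all rows were called. The 26 came with the filter on dim rows, where 5189 of 15813 rows were called. Of 139 repeats of the 12 named tests, 135 kept their direction and their side of the threshold, 4 no longer passed and 0 changed sign. These 4 came from leaving out 1 array and are given with their rows. The cause of these shifts was not tested. With the replicate number as a block 18 and 22 members were called in these comparisons, of which 17 and 20 were also called without it. Of all rows, 2840 and 5060 were called with the block, against 2749 and 4889 without it. Deviations of same-numbered arrays from their group means correlated between -0.11 and 0.08, so the numbers were not taken to pair the arrays.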

Other observations

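No members were adjacent in the order of identifiers, which was not compared with other lists of the same size. The closest pair, rows 13456790 and 13456801, lay 2 places apart in that order. Their courses differed. Row 13456790 had 5.25, 5.40 and 5.30 in pif5 and 5.81, 5.64 and 5.88 in Col-0 at day 6. Row 13456801 had 4.39, 5.81 and 4.55 in pif5 and 8.54, 8.37 and 8.43 in Col-0. The closest members thus shared neither the size of the Col-0 change nor the spread of the pif5 arrays.

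At row 13402416 the pif5 change of 1.2 at day 6 was larger than at the sampled days before and after it. Its light arrays in pif5 were 4.03, 4.25 and 4.38, and the change from light was 0.08 at day 3 and 0.10 at day 12. The day 6 arrays were 5.56, 5.84 and 4.83, against 4.65, 4.49 and 3.77 at day 3 and 4.84 and 3.80 at day 12. This row was picked after its values were seen, and its day 6 arrays were used in the choice of members.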
